A study of Homo sapiens with 28 samples.

Results

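The chromatin of 5 genes that define the endometrial lineage and its hormone response was examined in AN3CA cells, an established human endometrial carcinoma line. The genes were ESR1, PGR, PAX8, SOX17 and EMX2. Every peak of the 28 deposited peak lists that overlapped one of these genes or the 50 kb on either side of it was counted, on the hg19 build. Merging the peaks of all whole lists gave 41 regions at these loci out of 117446 in the series. In lists cut to equal length, which allow libraries to be compared, 9 of 32972 regions called by at least 2 libraries lay at the 5 loci.

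The cells expressed a form of ARID1A or of ARID1B, or an empty vector. ARID1A and ARID1B are alternative subunits of the canonical BAF chromatin remodeling complex. The assay was ATAC-seq: a transposase inserts into accessible DNA, and a peak marks a stretch with many insertions. ARID1A_WT and ARID1B_WT are the wild-type proteins. In the labels ARID1A_DBDmut is mutated in the ARID domain, the DNA-binding domain, ARID1A_delIDR1 and ARID1A_CBR are truncated, and ARID1A_DDX4 is a hybrid that carries a disordered region of DDX4. ARID1A_Y42S, ARID1A_AQGscramC1C2, ARID1B_S320_G327del, ARID1B_A457_G461del, ARID1B_Block13del and ARID1B_Block9del are called by the names in their titles. There are 2 libraries of each construct and 4 of the control, Empty_Vector. The labels do not give the promoter of the constructs, the number of clones, or whether replicates were separate cultures, so p-values measure the spread between these libraries, which may be technical.

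Lists differed in length, from 19433 peaks (ARID1A_Y42S 2) to 76530 (ARID1A_WT 1) on chromosomes 1 to 22 and X, and sequencing depth is unknown. The wild-type lists held 59776 to 76530 peaks, against 24527 to 49468 in Empty_Vector. A date code in the peak names divides the libraries into 6 runs, called A to F. Runs A and B each held 1 library of ARID1A_WT, ARID1A_DBDmut, ARID1A_delIDR1, ARID1A_CBR and Empty_Vector. Run C held the libraries of ARID1B_WT and ARID1B_S320_G327del and the remaining pair of Empty_Vector libraries. The other constructs were in runs D to F without any Empty_Vector library, so a difference of theirs from Empty_Vector cannot be told apart from the run. In 10 libraries, those of ARID1A_Y42S, ARID1A_AQGscramC1C2, ARID1B_A457_G461del, ARID1B_Block13del and ARID1B_Block9del, the genotype label names the empty vector while the title names the construct. They were grouped by title.

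The nuclear receptors ESR1 (estrogen receptor alpha) and PGR (progesterone receptor) are ligand-bound transcription factors, and PGR is a classical estrogen-induced gene of the uterus. PAX8 is a paired-box factor retained in epithelia that derive from the Müllerian duct and is used as a marker of gynaecological carcinomas. SOX17, an HMG-box factor, is expressed in endometrial epithelium and is recurrently mutated in endometrial carcinoma. EMX2 is a homeobox factor required in mice for the formation of the reproductive tract. Active promoters of such genes usually give an ATAC-seq peak, while enhancers give peaks at a distance from the gene, so the 2 kinds were counted apart. A peak call cannot tell more cells with an open site from a more open site in each cell.

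The promoters as RefSeq gives them on GRCh38.p14 are shown here to set EMX2, the one gene with a peak at its 5′ end, beside genes without one. Each runs from 250 bases before to 50 bases after an annotated start, with CpG dinucleotides in capitals. RefSeq lists 1 start for EMX2, 1 for PAX8, 3 for PGR and 6 for ESR1, and for the last 2 genes the start with most CpG is shown. They lie at chr10:117542496-117542795 (plus strand), chr2:113278872-113279171 (minus), chr11:101129014-101129313 (minus) and chr6:151807432-151807731 (plus).
EMX2: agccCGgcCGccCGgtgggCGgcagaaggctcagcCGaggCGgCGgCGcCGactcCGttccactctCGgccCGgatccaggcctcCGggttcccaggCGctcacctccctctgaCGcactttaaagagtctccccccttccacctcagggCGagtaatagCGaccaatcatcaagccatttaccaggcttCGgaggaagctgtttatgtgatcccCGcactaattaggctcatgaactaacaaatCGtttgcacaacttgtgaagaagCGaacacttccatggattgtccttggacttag
PAX8: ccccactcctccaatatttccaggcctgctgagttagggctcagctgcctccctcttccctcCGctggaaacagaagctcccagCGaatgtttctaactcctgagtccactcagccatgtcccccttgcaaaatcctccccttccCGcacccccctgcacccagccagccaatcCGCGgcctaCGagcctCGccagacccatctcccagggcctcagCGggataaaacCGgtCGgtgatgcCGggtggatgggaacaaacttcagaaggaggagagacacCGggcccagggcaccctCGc
PGR: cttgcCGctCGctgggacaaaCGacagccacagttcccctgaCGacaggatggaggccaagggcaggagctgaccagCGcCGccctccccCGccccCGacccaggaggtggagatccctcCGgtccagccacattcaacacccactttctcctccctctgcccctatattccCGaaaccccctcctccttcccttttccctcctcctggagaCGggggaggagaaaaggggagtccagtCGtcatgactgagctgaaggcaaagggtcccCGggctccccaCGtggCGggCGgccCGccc
ESR1: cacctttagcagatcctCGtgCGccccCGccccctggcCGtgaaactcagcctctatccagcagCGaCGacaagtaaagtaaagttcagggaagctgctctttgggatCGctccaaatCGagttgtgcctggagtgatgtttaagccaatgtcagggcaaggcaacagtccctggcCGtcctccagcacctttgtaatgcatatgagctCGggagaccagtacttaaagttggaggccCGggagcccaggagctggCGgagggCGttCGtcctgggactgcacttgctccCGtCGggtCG
The EMX2 promoter has 21 CpG and a GC content of 58.0%, the PAX8 promoter 13 CpG and 62.0%, this PGR promoter 17 CpG and 66.0%, and this ESR1 promoter 17 CpG and 58.3%. The median of all 35116 RefSeq promoters is 14 CpG and 58.7% GC, and 39.5% of them have at least as many CpG as EMX2, against 51.7% for PAX8 and 46.0% for PGR and ESR1. At least as high a GC content is found in 52.0% of promoters for EMX2, 41.4% for PAX8, 30.4% for PGR and 51.2% for ESR1. The other ESR1 starts have 4 to 12 CpG and the other PGR starts 7 and 15. The 6 ESR1 starts spread over 152.4 kb on GRCh38, and the one shown lies 151.0 kb from the outermost upstream start, so it need not be the 5′ end at which peaks were counted. These starts were not placed on hg19, so a peak at another start of ESR1 or PGR would count as distal in what follows. For PGR there was no such peak, since its window held none. At ESR1 no list had a peak between the regions 75.1 and 364.1 kb downstream of the 5′ end used here.

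A promoter peak, within 1 kb of the 5′ end of the gene span, was called for EMX2 in 24 of 28 libraries and for ESR1, PGR, PAX8 and SOX17 in none. With 2.5 kb in place of 1 kb the counts were 25 libraries for EMX2 and again none for the others. The nearest peak of any list to the ESR1 5′ end lay 14.2 kb upstream, and the nearest downstream lay 73.0 kb away. For PAX8 the distances were 4.0 kb upstream and 5.4 kb downstream, and for SOX17 25.9 kb upstream and 67.1 kb downstream. PGR stood furthest from any peak, with the nearest 312.1 kb upstream and 199.1 kb downstream of its 5′ end. In EMX2 the equal-length lists held no promoter peak, since the peak ranked beyond 19433 in every library that called it.

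**Figure D1:**
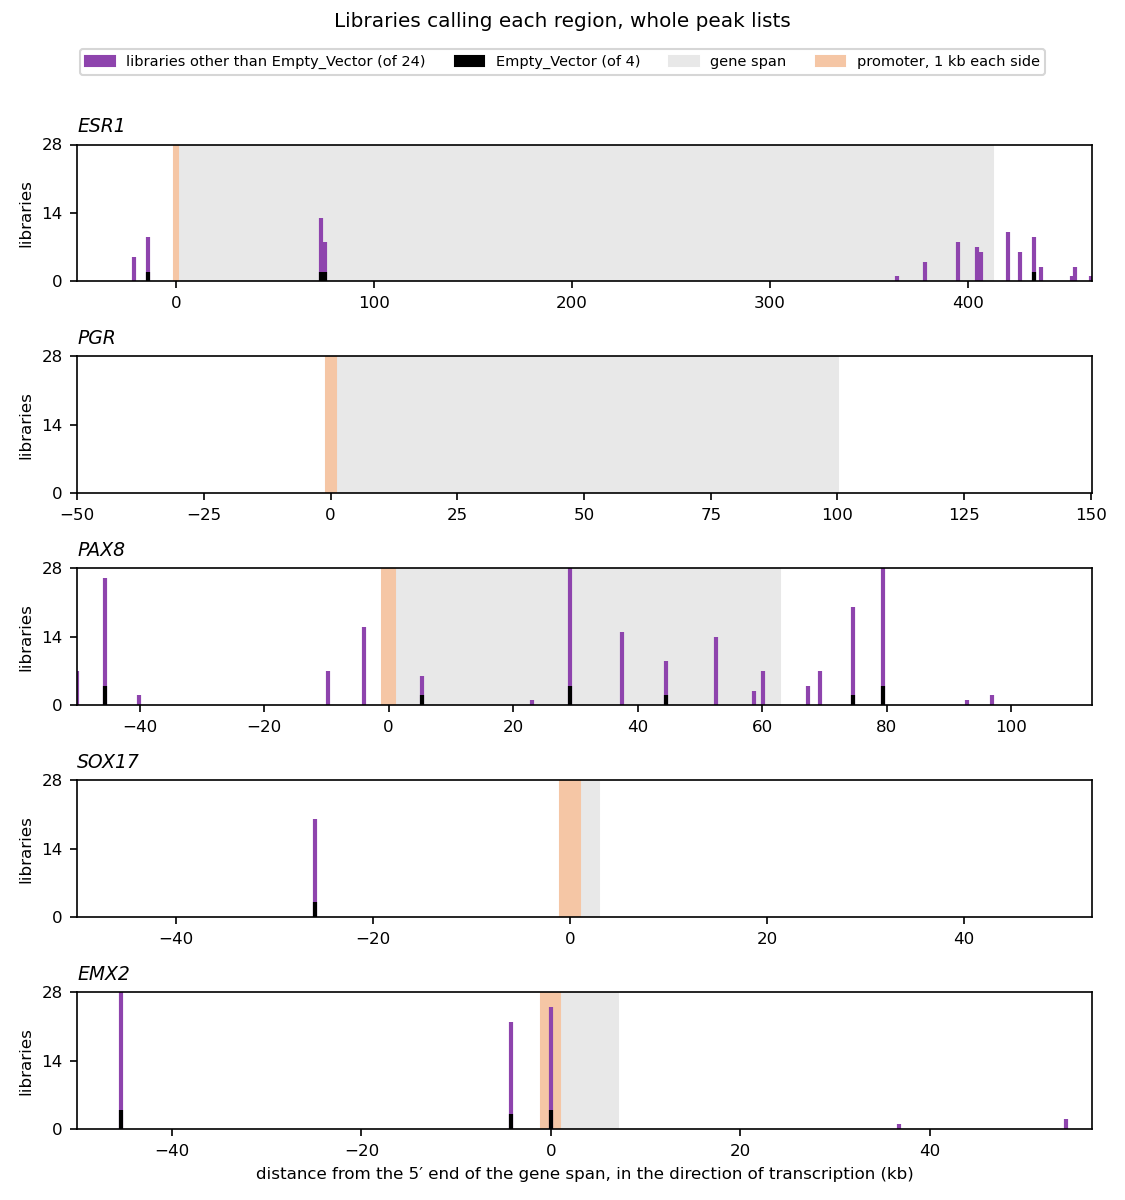
Regions at the 5 loci by distance from the 5′ end (x, kb, in the direction of transcription) and the number of libraries calling each in whole lists (y), with Empty_Vector in black at the foot of each bar and all other libraries above it. EMX2 has a region at its promoter in 25 libraries, PGR has no region, and the regions of ESR1, PAX8 and SOX17 lie outside the 1 kb promoter band.

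Across whole lists the loci held 198 peaks for PAX8, 94 for ESR1, 78 for EMX2, 20 for SOX17 and 0 for PGR, of which 24, all at EMX2, were promoter peaks. The 41 merged regions were 19 at PAX8, 16 at ESR1, 5 at EMX2 and 1 at SOX17, with a median width of 537 bp and a range of 195 to 2872 bp. Of these regions 15 lay in a gene body, 10 upstream, 15 past a 3′ end and 1 at a promoter. Of the 41, 6 were called by a single library and 3 by all 28.

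Density was set against all stretches of the same width along the same chromosomes. PAX8, with 19 regions in its 162925 bp window, was dense: 95.8% of 18612 such stretches had 19 regions or fewer, with a median of 4. ESR1, with 16 regions in 512779 bp, stood at the median of 16. PGR had no region in 200190 bp, a state shared by 18.7% of 15144 stretches. The SOX17 window had 1 region, and 40.3% of stretches of its width had 1 or 0. EMX2 had 5 regions, and 67.3% of stretches of its width had 5 or fewer. These stretches include gene-poor sequence and assembly gaps, so the comparison describes density only.

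Each library's list was then cut to its 19433 most significant peaks. A region's rank score is log2 of 19434 divided by the rank of its best peak, and it is 0 where the cut list has no peak there. The 5 loci together had 4, 4, 4 and 5 peaks in the ARID1A_WT and ARID1B_WT libraries, against 3 in each of the 4 Empty_Vector libraries. The altered constructs had 2 to 6. Wild-type and Empty_Vector libraries thus differed by 1 or 2 peaks. How often other windows of the genome do so was not counted, so this difference says nothing particular about these loci. Of the 9 regions 6 were at PAX8, 2 at ESR1 and 1 at EMX2.

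In wild-type cells, ARID1A_WT and ARID1B_WT pooled, 3 of the 9 regions ranked higher than in Empty_Vector and 0 ranked lower (limma, Benjamini-Hochberg adjusted p under 0.05 over all 32972 regions). Over all regions 13.2% were higher and 7.01% lower. The median rank score difference was 0.00 over the 9 regions and -0.02 over all regions. At an unadjusted p under 0.05 in limma, 4 of the 9 passed, against 31.1% of all regions. The 3 regions were PAX8 at 52.5 kb and -4.0 kb and ESR1 at 420.4 kb from the 5′ end. The one at -4.0 kb entered the fit only through the ARID1A_WT libraries, so it had to differ, and it is described below without a test. The ESR1 region entered only through the ARID1B_WT and ARID1B_S320_G327del libraries, so its difference is partly fixed as well. Among regions called in at least 4 libraries, 2 of 7 were higher. By overlap alone, 1 of 9 regions (11.1%) was gained, meaning called in all 4 wild-type and in no Empty_Vector library, against 5.78% of all regions. The opposite, a lost region, was seen for 1 of 9, against 2.27% of all regions. Counts this small say little about how the 5 loci stand against the genome.

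The gained region lies inside PAX8, 52.5 kb downstream of the 5′ end, at chr2:113983021-113983959. Its ranks were 15758 and 14413 in ARID1A_WT and 13442 and 17187 in ARID1B_WT, and no Empty_Vector list held a peak there at any rank. That the wild-type and Empty_Vector scores do not overlap follows from the choice of a gained region, a pattern of 5.78% of all regions. The rank score averaged 0.36 ± 0.15 in wild-type libraries and 0.00 in Empty_Vector libraries (SD, n = 4 each), a difference of 0.36 ± 0.07 (SE; limma adjusted p = 0.000316). The difference was as large for ARID1A_WT alone (0.37 ± 0.08, limma adjusted p = 0.00382) as for ARID1B_WT alone (0.355 ± 0.08, limma adjusted p = 0.00243). With the run as a block within runs A to C, the limma adjusted p of both wild types was 0.0213, of ARID1A_WT alone 0.158 and of ARID1B_WT alone 0.0993, at like differences. Ranking peaks by fold enrichment in place of significance gave 0.26 and a limma adjusted p of 0.096.

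In whole lists the same PAX8 site was called in 14 libraries. The authors' fold enrichment there was 5.33 and 5.26 in ARID1A_WT, 6.76 and 6.43 in ARID1B_WT, 5.35 and 4.99 in ARID1A_DBDmut, 5.03 and 5.59 in ARID1A_delIDR1, and 5.16 and 4.74 in ARID1A_CBR. ARID1B_S320_G327del had 5.89 and 5.71, and ARID1B_A457_G461del 6.29 and 6.41. Both libraries of ARID1A_DDX4, ARID1A_Y42S, ARID1A_AQGscramC1C2, ARID1B_Block13del and ARID1B_Block9del had no peak, like Empty_Vector. So the site was called in every library of runs A to C except the Empty_Vector ones, and outside those runs only with ARID1B_A457_G461del. Some of these ranks stood just inside or outside the cut, at 19277 in ARID1B_S320_G327del 2 and at 19729 in ARID1B_A457_G461del 2.

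A region upstream of PAX8, from 4.0 kb before its 5′ end at chr2:114040548-114042025, was called in the equal-length lists of both ARID1A_WT libraries, at ranks 11549 and 9471, and in no other library. Whole lists held a peak at this site in 16 libraries and in none of Empty_Vector. Its fold enrichment was 4.42 and 4.73 in ARID1A_WT, 4.23 and 4.01 in ARID1B_WT, 4.21 and 4.25 in ARID1A_DBDmut, 4.66 and 4.47 in ARID1A_delIDR1, and 3.50 and 3.57 in ARID1A_CBR. It was 4.08 and 4.12 in ARID1B_S320_G327del, 4.49 and 4.59 in ARID1B_A457_G461del, and 3.90 and 4.50 in ARID1B_Block13del. In fold, ARID1A_WT overlapped with ARID1A_delIDR1, ARID1B_A457_G461del and ARID1B_Block13del. Both ARID1B_WT libraries had the peak at ranks 21996 and 28741, beyond the equal-length list.

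Outside the 5 windows, the regions whose rank scores followed this upstream site, the member with the smallest adjusted p, most closely were chr15:43460457-43461247 (Pearson r = 0.9997 over 28 libraries), chr5:76463511-76464847 (r = 0.9997) and chr16:68985999-68986699 (r = 0.9995). Each was called in 2 libraries only, and 58 regions had an r above 0.95, so the likeness rests on the same 2 ARID1A_WT libraries.

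A region in the PAX8 gene body, 29.2 kb from the 5′ end at chr2:114006653-114007316, went the other way. No wild-type peak reached the equal-length list, while its ranks in Empty_Vector were 14398, 14590, 18276 and 15018. The rank score was 0.00 in wild-type libraries and 0.33 ± 0.16 in Empty_Vector libraries (SD, n = 4 each), a difference of -0.33 ± 0.13 (SE; limma adjusted p = 0.0823), which did not pass. Without Empty_Vector 3, the library with the lowest score of that group, the difference was -0.41 and the limma adjusted p 0.0397. Whole lists held the site in all 28 libraries, with fold enrichments of 5.84 and 4.84 in ARID1A_WT, 5.97 and 5.92 in ARID1B_WT, and 6.93, 6.56, 5.25 and 6.89 in Empty_Vector. These folds overlap between the groups. In whole lists, which differ in length, its rank score difference was -0.89 with a limma adjusted p of 0.00179.

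The strongest site at any of the loci lies 79.4 kb from the PAX8 5′ end, at chr2:113956189-113957144. It is 16.4 kb past the 3′ end, on the side of PSD4. Whether the site lies within PSD4 was not determined, and its position does not assign it to PAX8. All 28 libraries called it, at ranks from 1308 (ARID1A_CBR 2) to 7541 (ARID1B_S320_G327del 2) with a median of 2822. The rank score averaged 2.91 ± 0.51 in wild-type libraries and 2.60 ± 0.53 in Empty_Vector libraries (SD, n = 4 each). The difference of 0.31 ± 0.39 (SE; limma adjusted p = 0.666) was within the spread of the libraries. Its fold enrichment ran from 4.74 (ARID1A_DDX4 1) to 10.1 (ARID1B_Block13del 2). The remaining pair of PAX8 regions, at 74.5 kb and -45.6 kb, had no peak in the equal-length list of any wild-type or Empty_Vector library.

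**Figure D2:**
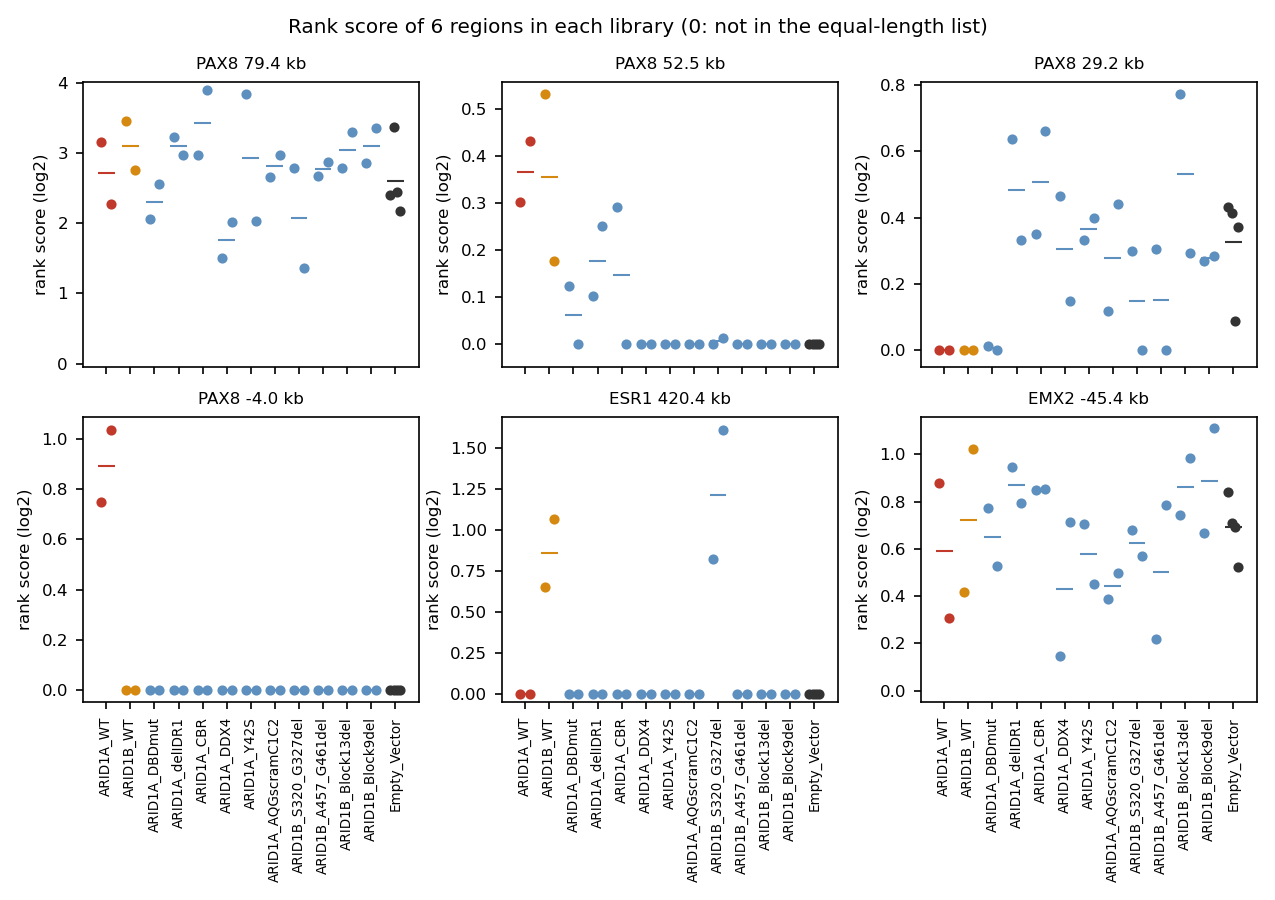
Rank score (y, log2 scale, 0 where the region is not in the equal-length list) of 6 regions in every library, by group (x), with Empty_Vector at the right and a line at each group mean. At PAX8 -4.0 kb only the ARID1A_WT points stand above 0, at ESR1 420.4 kb only those of ARID1B_WT and ARID1B_S320_G327del do, and at PAX8 79.4 kb and EMX2 -45.4 kb every library has a score.

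ESR1 had a single region that passed. It lies 420.4 kb from the 5′ end and 7.6 kb past the 3′ end, toward SYNE1, at chr6:152432043-152432902. Its ranks were 12345 and 9261 in ARID1B_WT and 10991 and 6366 in ARID1B_S320_G327del, and no other equal-length list held it. The region thus entered the fit only through these 4 libraries, all of run C. Its differences from groups that stood at 0 are partly fixed by that entry, so their p-values are no independent support. The wild-type rank score averaged 0.43 ± 0.53 because ARID1A_WT stood at 0, as did Empty_Vector (SD, n = 4 each). The difference was 0.43 ± 0.11 for both wild types (SE; limma adjusted p = 0.00863) and 0.86 ± 0.14 for ARID1B_WT alone (SE; limma adjusted p = 6.85e-05). ARID1B_S320_G327del differed from Empty_Vector by 1.22 ± 0.14 (SE; limma adjusted p = 4.31e-07).

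The call for both wild types at this ESR1 region did not hold under every alternative. With the run as a block its limma adjusted p was 0.0718, and without ARID1B_WT 2 it was 0.052. Among the best 9716 peaks the difference was 0.02. For ARID1B_WT alone the limma adjusted p with the run as a block was 0.0189. ARID1A_WT minus ARID1B_WT was -0.86 ± 0.16 (SE; limma adjusted p = 0.000579), with a limma adjusted p of 0.149 when the run was a block. This contrast was added after seeing the data, and 13.8% of all regions passed it in either direction. Both ARID1B_WT libraries were in run C and the ARID1A_WT libraries in runs A and B.

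In whole lists this ESR1 region was called in 10 libraries, ARID1A_WT among them at ranks 33759 and 24584. Fold enrichment was 4.91 and 5.48 in ARID1A_WT, 6.73 and 7.88 in ARID1B_WT, 6.84 and 7.41 in ARID1B_S320_G327del, 6.64 and 5.84 in ARID1B_A457_G461del, and 5.26 and 5.47 in ARID1B_Block13del. None of the altered ARID1A libraries, no ARID1B_Block9del library and no Empty_Vector library held a peak there.

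All 16 ESR1 regions, the one at 420.4 kb included, fell into 2 clusters with 288.7 kb of the gene body between them in which no list had a peak. The cluster at the 5′ side has 4 regions, from -21.4 kb to 75.1 kb. The cluster at the 3′ side has 12, from 364.1 kb to 462.5 kb. At the 5′ side ARID1A_WT called 2 and 3 regions, ARID1B_WT 1 and 0, ARID1A_CBR 3 and 4, and Empty_Vector 3, 3, 0 and 0. Empty_Vector thus called them in runs A and B and not in run C, where its lists were shorter. As the share of all regions called by each library was not counted, the 5′ counts are a description only.

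At the 3′ side ARID1A_WT called 6 and 4 of the 12 regions, ARID1B_WT 7 and 6, ARID1B_S320_G327del 7 and 8, and Empty_Vector 1, 1, 0 and 0. ARID1B_A457_G461del called 4 and 2. No library of the remaining constructs called more than 2. Some of these had long lists: ARID1A_CBR 2, with 65949 peaks, called 2, and ARID1A_DBDmut 1, with 58540, called 1. The wild-type and ARID1B_S320_G327del lists held 59776 to 76530 peaks, against 24527 to 49468 in Empty_Vector. The share of all regions that each library called was not counted, so these counts show no change by themselves. Of the 9 regions here that at least 2 libraries called, 3 were in all 4 wild-type and no Empty_Vector library, a pattern that 18.2% of all regions in whole lists show. A contrary region in this cluster, 433.8 kb from the 5′ end, was called in 9 libraries, among them Empty_Vector 1 and 2, ARID1A_DBDmut 2 and both libraries of ARID1A_delIDR1 and ARID1A_CBR, and in no wild-type library. The clusters were drawn after the positions were seen, and no test was made on them.

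**Figure D3:**
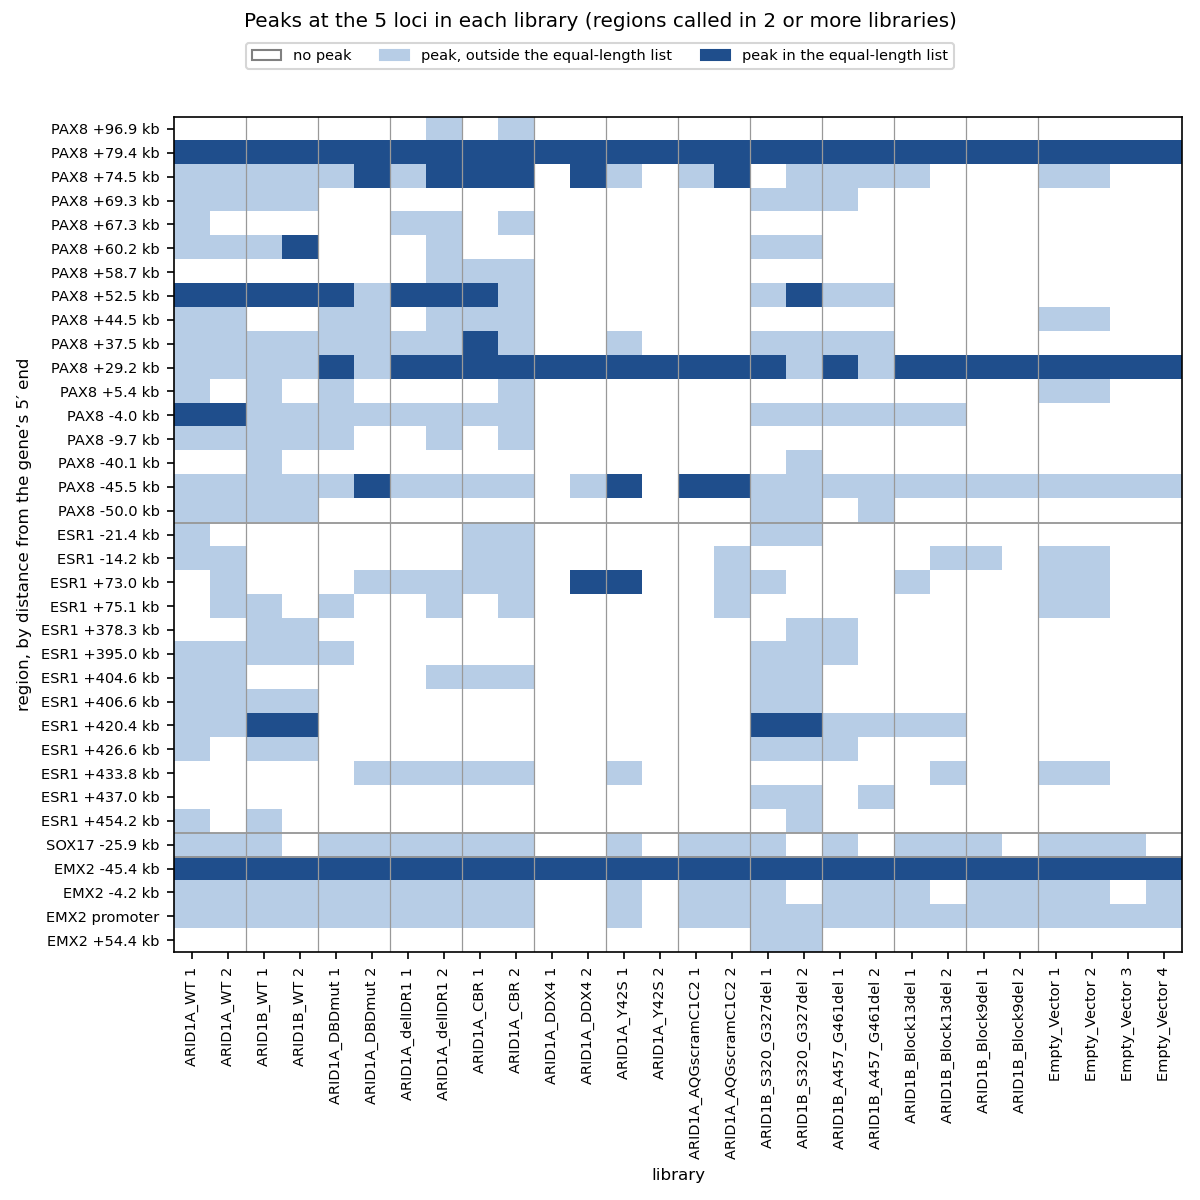
Each of the 35 regions called in 2 or more libraries (rows, by gene and distance from the 5′ end) in each library (columns, Empty_Vector at the right), with dark blue for a peak in the equal-length list, light blue for a peak beyond it and white for no peak. PAX8 79.4 kb and EMX2 -45.4 kb are dark in all 28 libraries, and 10 regions are coloured in all 4 wild-type columns and white in all 4 Empty_Vector columns.

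Taking whole lists, 10 of the 35 regions called in at least 2 libraries (28.6%) were in all 4 wild-type libraries and in no Empty_Vector library, against 18.2% of 95411 regions of the series. Of the 10, 7 were at PAX8 and 3 at ESR1, and 0 regions showed the opposite. Of these regions, 5 were in no equal-length list. Whole lists of wild-type libraries were longer than those of Empty_Vector, so the count shows no change by itself.

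Runs A and B allow a comparison at like list length. ARID1A_CBR 1 (45089 peaks) and ARID1A_delIDR1 1 (43130) had shorter lists than Empty_Vector 1 (45227) of the same run. ARID1A_DBDmut 2 (48799) had a shorter list than Empty_Vector 2 (49468) of its run. Each of these 3 libraries called 3 of the 7 PAX8 regions, namely those at 52.5, 37.5 and -4.0 kb, while Empty_Vector called none by the choice of the regions. Of all 17400 regions of the series chosen in the same way, ARID1A_CBR 1 called 18.3%, ARID1A_delIDR1 1 36.2% and ARID1A_DBDmut 2 52.2%. The count at PAX8 is not set apart from these shares. These 3 regions were called in all 8 libraries of runs A and B other than Empty_Vector. All 7 were chosen for their presence in the wild-type libraries and absence in Empty_Vector. The 3 regions were then named because the 3 altered libraries called them. Their presence in those libraries is therefore fixed by the choice as well and is no independent support.

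Across the constructs, ARID1B_S320_G327del called 6 and 6 of the 7 PAX8 regions, ARID1A_delIDR1 3 and 5, ARID1B_A457_G461del 4 and 4, ARID1A_DBDmut 4 and 3, and ARID1A_CBR 3 and 4. ARID1B_Block13del called 1 and 1, ARID1A_Y42S 1 and 0, and ARID1A_DDX4, ARID1A_AQGscramC1C2 and ARID1B_Block9del 0 and 0. Of the 17400 regions, ARID1B_S320_G327del called 93.0% and 95.7%, ARID1B_A457_G461del 78.6% and 77.2%, and ARID1B_Block13del 27.4% and 24.0%. ARID1A_DBDmut called 63.4% and 52.2%, ARID1A_delIDR1 36.2% and 52.3%, and ARID1A_CBR 18.3% and 35.4%. ARID1B_Block9del called 6.94% and 8.02%, and no library of ARID1A_DDX4, ARID1A_Y42S or ARID1A_AQGscramC1C2 called more than 3.32%. ARID1B_Block13del, ARID1A_Y42S, ARID1A_DDX4, ARID1A_AQGscramC1C2 and ARID1B_Block9del had lists of 19433 to 36113 peaks and were in runs D to F. Shares did not always follow list length. ARID1A_CBR 2, with 65949 peaks, called 35.4%, and ARID1B_A457_G461del 2, with 50726, called 77.2%. What sets the order was not tested. Of the other 12 PAX8 regions, ARID1A_WT called 8 and 5, ARID1B_WT 6 and 5, and Empty_Vector 6, 6, 3 and 3. No share over all regions was counted beside these 12, so they are a description only.

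**Figure D4:**
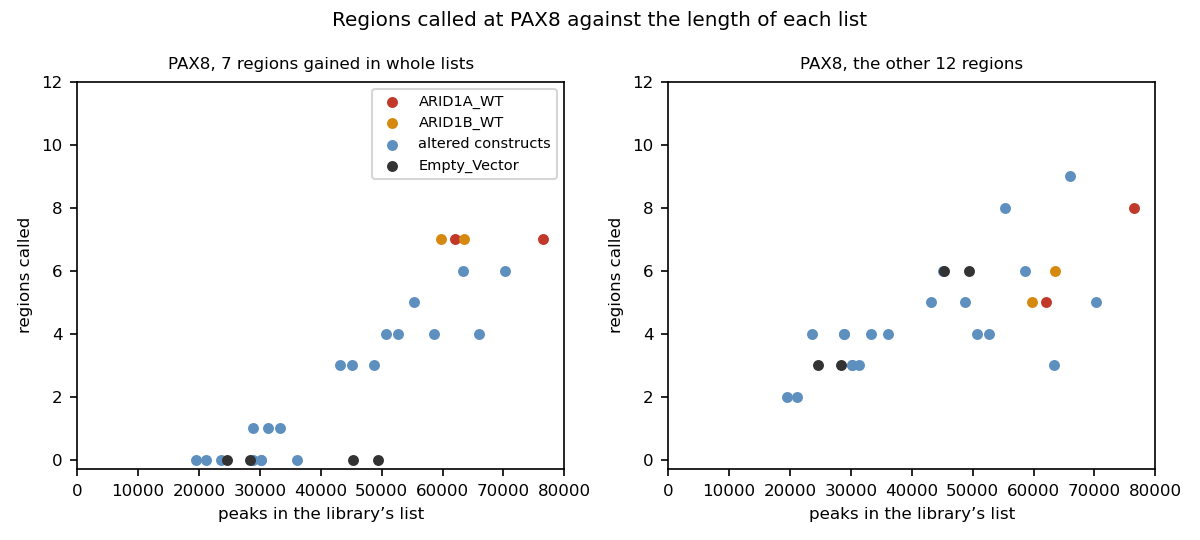
PAX8 regions called (y) against the number of peaks in each library's list (x), for the 7 regions in all wild-type and no Empty_Vector library (left) and for the other 12 (right), 1 point a library. The wild-type points at 7 and the Empty_Vector points at 0 on the left are fixed by the choice of regions, while the altered constructs range from 0 to 6.

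EMX2 was the one gene with a promoter peak, in a region at chr10:119300889-119303760 that overlaps the 5′ end. RefSeq lists the antisense gene EMX2OS as overlapping EMX2, and an ATAC-seq peak cannot be assigned to one of the pair. The promoter region was called in 25 libraries in whole lists, the exceptions being ARID1A_DDX4 1 and 2 and ARID1A_Y42S 2, which have the 3 shortest lists. Fold enrichment was 3.03 and 2.77 in ARID1A_WT, 3.25 and 3.40 in ARID1B_WT, and 2.78, 2.48, 3.27 and 3.22 in Empty_Vector. The groups overlap. Across all 25 libraries it ran from 2.48 to 3.86 with a median of 3.15, the lowest median of the 41 regions. The promoter region was also the widest of the 41, at 2872 bp. Folds were not adjusted for width.

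Another EMX2 region, 4.2 kb upstream, was called in 22 libraries at folds of 3.06 to 4.30. The strongest EMX2 site lay 45.4 kb upstream at chr10:119255928-119256603 and was called in all 28 equal-length lists. Its ranks were 10584 and 15696 in ARID1A_WT, 14534 and 9564 in ARID1B_WT, and 10862, 11873, 12029 and 13516 in Empty_Vector. The rank score averaged 0.66 ± 0.35 in wild-type libraries and 0.69 ± 0.13 in Empty_Vector libraries (SD, n = 4 each), and the difference of -0.035 ± 0.18 (SE; limma adjusted p = 1) was within that spread. Fold enrichment was lowest in ARID1A_DDX4 1 (3.46) and highest in ARID1B_Block13del 2 (8.81). Another pair of regions, downstream, was called in 1 and 2 libraries.

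**Figure D5:**
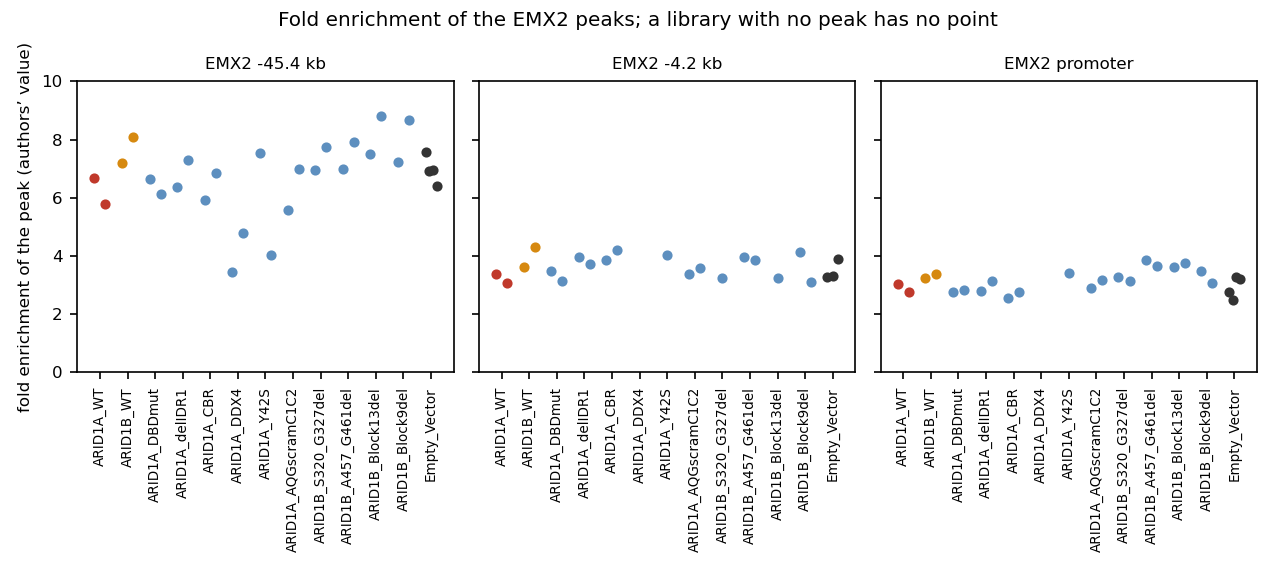
Fold enrichment of the EMX2 peaks, as deposited (y), in each library by group (x), with Empty_Vector at the right, for the sites 45.4 kb and 4.2 kb upstream and the promoter. The promoter peaks lie between 2.48 and 3.86, below the 45.4 kb site in every library that has both, and the wild-type and Empty_Vector points overlap.

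SOX17 had 1 region, 25.9 kb upstream at chr8:55344044-55344569, called in 20 libraries in whole lists and in no equal-length list. Its best rank was 19632, in ARID1A_Y42S 1, just outside the cut. Fold enrichment was 5.40 and 5.61 in ARID1A_WT, 4.57 in ARID1B_WT 1, and 6.08, 5.28 and 5.07 in Empty_Vector 1 to 3, with no peak in ARID1B_WT 2 or Empty_Vector 4. Wild-type and Empty_Vector libraries were alike in this count, at 3 of 4 each. PGR had no peak in any library, and nothing was called in its 200190 bp window with any construct.

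The altered constructs were set against Empty_Vector, whose libraries all these comparisons share. ARID1A_WT itself had 2 regions higher and 0 lower of 9, the -4.0 kb region among them, beside 7.3% and 1.81% of all regions, and ARID1B_WT had 2 higher and 0 lower, beside 13.7% and 7.87%. ARID1A_CBR changed 1 of 9 (4.42% of all regions in either direction), a region 74.5 kb from the PAX8 5′ end. Its ranks there were 14905 and 17732 in ARID1A_CBR, against 19726 and 26316 in Empty_Vector 1 and 2, both beyond the equal-length list, and no peak in Empty_Vector 3 and 4. The rank score difference was 0.26 ± 0.05 (SE; limma adjusted p = 0.00537), while the folds of 4.40 and 4.21 in ARID1A_CBR overlapped with 4.22 and 3.38 in Empty_Vector 1 and 2. ARID1B_S320_G327del changed 1 (31.2%), the ESR1 region given above. No region passed for ARID1A_DBDmut (1.85%), ARID1A_delIDR1 (4.09%), ARID1A_DDX4 (3.07%), ARID1A_Y42S (1.53%) or ARID1A_AQGscramC1C2 (0.1%). None passed for ARID1B_A457_G461del (14.2%), ARID1B_Block13del (0.989%) or ARID1B_Block9del (0.664%). At an unadjusted p under 0.05 in limma, ARID1A_DBDmut and ARID1A_delIDR1 had 1 region each, against 9.03% and 14.4% of all regions. The other 6 had 0, against 16.4% for ARID1A_DDX4, 14.0% for ARID1A_Y42S, 5.24% for ARID1A_AQGscramC1C2, 25.7% for ARID1B_A457_G461del, 12.7% for ARID1B_Block13del and 10.2% for ARID1B_Block9del.

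Against ARID1A_WT, the PAX8 region at 52.5 kb was lower with ARID1A_DDX4, ARID1A_AQGscramC1C2 and ARID1A_Y42S, by -0.37 ± 0.09 in each (SE; limma adjusted p from 0.0104 to 0.0149). These 3 constructs were in runs D to F and ARID1A_WT in runs A and B, so the construct cannot be told apart from its run. Every count that follows also includes the PAX8 region at -4.0 kb, which had to be lower because it entered the fit through ARID1A_WT alone. With it, 2 of 9 regions changed for ARID1A_DDX4 (13.6% of all regions in either direction), ARID1A_Y42S (12.9%) and ARID1A_AQGscramC1C2 (7.52%), and that region alone for ARID1A_DBDmut (3.33%) and ARID1A_delIDR1 (5.03%). ARID1A_CBR changed 2 (8.61%), with the 74.5 kb region higher by 0.26 ± 0.06 (SE; limma adjusted p = 0.00931). ARID1A_WT had a peak there at ranks 20666 and 29986, beyond the equal-length list, with folds of 4.44 and 3.75 that overlapped those of ARID1A_CBR.

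Against ARID1B_WT, the PAX8 region at 52.5 kb had a lower rank score in all 4 altered ARID1B constructs. The differences were -0.35 ± 0.09 for ARID1B_S320_G327del (SE; limma adjusted p = 0.0128) and -0.355 ± 0.09 for the other 3 (SE; limma adjusted p from 0.00897 to 0.0172). ARID1B_A457_G461del had the peak at ranks 20148 and 19729, past the cut at 19433, with folds of 6.29 and 6.41. ARID1B_S320_G327del had it at ranks 21465 and 19277, with folds of 5.89 and 5.71. Folds in ARID1B_WT were 6.76 and 6.43. Both altered forms thus kept the peak, while ARID1B_Block13del and ARID1B_Block9del had none. The ESR1 region at 420.4 kb was lower in rank score with ARID1B_A457_G461del, ARID1B_Block13del and ARID1B_Block9del, by -0.86 ± 0.16 in each (SE; limma adjusted p from 0.00042 to 0.000846). It entered the fit only through the ARID1B_WT and ARID1B_S320_G327del libraries, so these differences are partly fixed by that entry. With ARID1B_S320_G327del it stood at 1.22 against 0.86 in ARID1B_WT and did not pass. So 1 of 9 regions changed for ARID1B_S320_G327del (12.1% of all regions) and 2 for ARID1B_A457_G461del (8.09%), ARID1B_Block13del (16.6%) and ARID1B_Block9del (17.5%). Apart from ARID1B_S320_G327del, these constructs and ARID1B_WT were in different runs.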

How the data were processed

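ATAC-seq was measured in 28 libraries of AN3CA cells in 13 groups, with 1 deposited broadPeak list a library, so calling was done for single samples. The submitters' processing notes name hg19 and the tools MACS2, SAMtools 0.1.19, Picard 2.8.0, Bowtie2 and bcl2fastq. Per the labels, libraries were amplified for 7 PCR cycles. The sources used here do not say how the cut-site offset was handled, with which options MACS2 ran, or against which control. For each peak the authors deposited a score, a fold enrichment (a ratio over the caller's background), a -log10 p-value and a -log10 q-value. The lists give no read counts, so depth is unknown. The series' design text describes CUT&Tag, while titles name ATAC-seq, and the titles were followed.

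Lists were limited to chromosomes 1 to 22 and X and to their 19433 best peaks by the authors' -log10 p, the length of the shortest list. Peaks overlapping by 1 bp were merged into regions, leaving out those of a single library. Rank scores were fitted with limma 3.58.1 (R 4.3.3) as 13 group means over all regions, with trended, robust variance and Benjamini-Hochberg adjustment at 0.05. Scores of uncalled regions are all 0, which shrinks the fitted spread. The fit was tested on made-up data, where it found raised regions well and lowered ones poorly, and its false calls exceeded the nominal rate. Whole lists were used to describe where peaks lie. Gene spans came from the definition of the loci, and promoters were taken within 1 kb of their 5′ ends. Neighbouring gene names and promoter sequences came from RefSeq (GRCh38.p14), which was not used for coordinates on hg19. Whether a region past a 3′ end lies within a neighbouring gene, such as PSD4 or SYNE1, was therefore not determined. Exon annotation, sequences of distal peaks, other pathway genes and cell type markers were not analysed here, since they need an hg19 annotation. Scripts used Python 3.11.15.

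Named regions were every promoter region, every region gained, lost or past the adjusted p, the best-ranked region of each locus, and the 3 regions most correlated with the region of smallest adjusted p. Members and lists were chosen with earlier results of these data known. No 2 lists were identical.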

Additional observations from a re-analysis of the deposited data

Results flagged for a closer look

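The number of peaks at SOX17 was 1, 1, 1 and 0 in the 4 Empty_Vector libraries, and Empty_Vector 4 stood apart from the others (gap over range 1.0). At EMX2 the counts were 3, 3, 2 and 3, and Empty_Vector 3 stood apart (gap over range 1.0). In counts this small, 1 library that differs from the others by 1 peak always gives that ratio, so the flags mean no more than that. Both libraries had short lists, but the SOX17 peak was absent from Empty_Vector 4 (28314 peaks) and present in Empty_Vector 3 (24527).

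The effects of ARID1A_WT and ARID1B_WT against Empty_Vector differed at ESR1 420.4 kb by -0.862 in rank score (ARID1A_WT minus ARID1B_WT; limma adjusted p = 0.000579), a difference that did not pass with the run as a block (limma adjusted p = 0.149). That region entered the fit only through the ARID1B_WT and ARID1B_S320_G327del libraries, so the difference is partly fixed by that entry.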

How the results depend on the processing

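Of the 9 regions, 3 ranked higher with the wild types than with Empty_Vector, 0 ranked lower, 1 was gained and 1 lost. Among the best 9716 peaks of each list, where 3 regions remained to be tested, higher, gained and lost regions were 0 each, and calls summed over constructs were 1 against Empty_Vector (6 as reported) and 0 against the own wild type (17 as reported, 6 of them the PAX8 region at -4.0 kb). Ranking by fold enrichment gave 1 higher, 0 gained and 0 lost region, with 3 and 3 calls over constructs. Whole lists gave 12 higher, 2 lower, 10 gained and 0 lost among 35 regions, where 33.0% of all 95411 regions were higher and 8.3% lower. Peaks of -log10 q of at least 5 gave 0 gained and 0 lost, and gene bodies alone 1 higher region. Leaving out 1 wild-type or Empty_Vector library at a time gave 2 to 3 higher, 0 to 1 lower, 1 gained and 1 lost region. Equal-length lists gave 0 libraries with an EMX2 promoter peak (24 as reported). Apart from fewer regions or other list lengths, the cause was not tested.

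The difference at PAX8 52.5 kb passed in 15 of the 16 alternatives that gave a value. Its direction could not turn, since no Empty_Vector list held a peak there at any rank. Among the best 9716 peaks no region formed at that site. No region formed at PAX8 -4.0 kb among the best 9716 peaks, under fold ranking or with 4 libraries as minimum. At ESR1 420.4 kb the difference passed in 14 of 17. The exceptions were the best 9716 peaks, the run as a block and leaving out ARID1B_WT 2. As that region entered only through ARID1B_WT and ARID1B_S320_G327del, its difference is partly fixed, and the count is no independent support. At PAX8 29.2 kb 2 of 16 alternatives passed, whole lists and leaving out Empty_Vector 3.

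Same-numbered libraries of runs A and B deviated together only in part (r from -0.05 to 0.325 over 10 pairs of groups, and from -0.125 to 0.103 in 68 other pairs). With the replicate block 3 regions were higher and 0 lower, with 6 and 18 calls over constructs.

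Depth is unknown, so a missing peak means only that none was called.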
